A study of Gossypium hirsutum with 9 samples.

Results

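The genes described here are the AP2/ERF ethylene-responsive factors of cotton fibre, taken as every gene whose symbol is ERF with a number or letter, RAP2 with a number, or DREB with a number and a letter. There were 373 such genes, with 61 symbols, among 70478 genes in the table, of which 52552 carried a symbol. By the chromosome written in the gene identifier, 185 lay in the A subgenome, 180 in the D subgenome and 8 on scaffolds. Expression was measured by RNA sequencing of total RNA from fibres of Gossypium hirsutum (upland cotton) grown in the field and taken 9 days post anthesis. In the RNAi group the gene for the transcription factor GhWRKY16 was targeted by RNA interference, and the WT group was wild type. Of the 6 RNAi samples listed, 5 were analysed here (replicates 2 to 6), together with 3 WT samples, and RNAi replicate 1 was not analysed here. Not given in the sources used here are the cultivar, the promoter that drives the construct and how many transgenic lines were used. Whether each replicate is a different plant is not said either. The p-values therefore speak of the spread among these libraries, part of which may be technical.

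AP2/ERF proteins are plant transcription factors that share a DNA-binding domain. ERF-type members classically bind the GCC box of ethylene-responsive and defence genes, and DREB-type members bind the dehydration-responsive element of drought and cold genes. In ethylene signalling the hormone is made from S-adenosylmethionine through ACC, is sensed by ETR and ERS receptors, and acts through EIN2 and the EIN3 and EIL factors, which switch on ERF genes. Ethylene is known to promote the elongation of cotton fibres, which are single cells growing out from the seed coat. A separate branch, the group VII ERFs, is regulated by protein stability: oxygen-dependent oxidation of their amino terminus marks them for breakdown, so transcript level and protein level can differ.

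Values are FPKM, fragments divided by transcript length and by library size, so levels can be set against each other between genes. Means are given ± SD over the 5 RNAi and the 3 WT libraries. Column sums lay between 1200830 and 1296910 FPKM. The depth relative to WT replicate 1, derived from the steps between low values, was 1.26, 1.83, 0.367, 2.19 and 1.11 in RNAi replicates 2 to 6, against 1.77 and 1.39 in WT replicates 2 and 3. RNAi replicate 4 was the shallowest library, and genes lacking a symbol took 32.9% of its FPKM, where they took 27.2% to 29.7% in the other libraries. No gene carried the symbol WRKY16, so the reduction of the silenced gene was not measured here. The fibre markers E6, SUS3 and EXPA4 were measured, with a highest value of 21237 FPKM for the E6 gene Gh_D05G1514 in RNAi replicate 6. Of the ovule and seed storage markers, LEGA, LEGB and AT2S3 were listed at 0 in all 8 libraries. The genes of the same list with the symbol VCL1 were not at 0. What VCL1 stands for here was not checked, so their values do not show storage transcripts. Gh_D07G1853 (VCL1) averaged 10.7 FPKM in RNAi and 9.46 FPKM in WT, and Gh_A07G1644 (VCL1) 6.99 and 7.62 FPKM.

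Most of these genes were at or near 0 in the fibre. Of the 373, 173 (46.4%) were listed at 0 in all 8 libraries, against 22.6% of all 70478 genes and 19.0% of genes with a symbol. Another 127 had a value above 0 but did not reach 1 FPKM in 3 libraries. The other 73 (19.6%) did, against 48.3% of all genes and 51.5% of genes with a symbol. Only these 73 genes, from 30 of the 61 symbols, entered the test, and 56 of them reached 1 FPKM in all 8 libraries. For 10 symbols every gene was listed at 0. The share of genes at 0 varied by class, with the classes read from the symbols and the Arabidopsis genes they are named for. No gene of the 14 oxygen-sensing ERFs (RAP2-3, RAP2-12 and ERF071 of group VII) was at 0 throughout and 10 were tested. Of the 36 repressor-type ERFs (ERF3, ERF4, ERF7, ERF9 and relatives, many of which carry the EAR repression motif) 17 were tested. Of the 117 defence-type ERFs (such as ERF1A, ERF1B, ERF5 and ERF105), 71 were at 0 throughout and 16 were tested. Of the 137 DREB-type genes, 58 were at 0 throughout and 22 were tested.

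**Figure D1:**
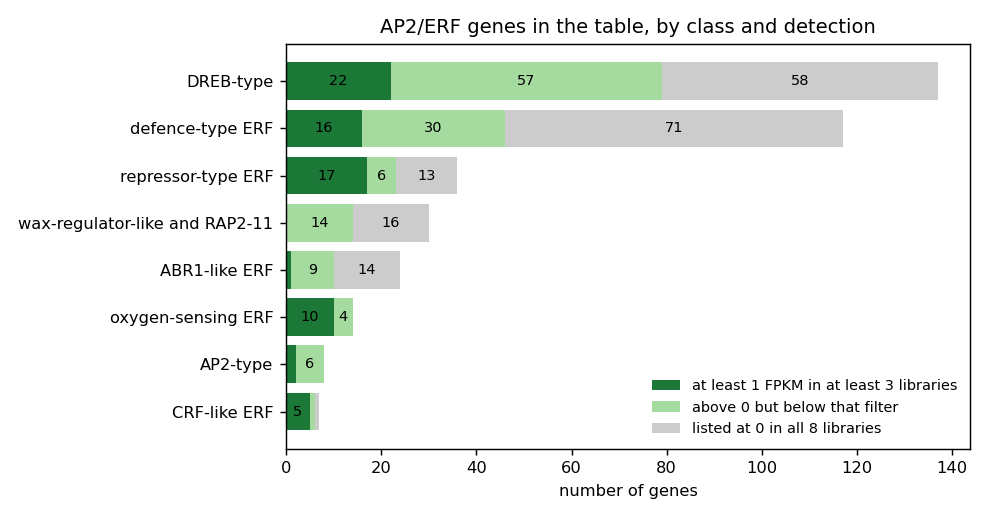
Number of AP2/ERF genes (x axis) in each class (y axis), split into genes that reach 1 FPKM in 3 or more libraries, genes above 0 but below that filter, and genes listed at 0 in all 8 libraries. DREB-type (137 genes) and defence-type (117 genes) are the most numerous classes, but 22 and 16 of them pass the filter, while 10 of 14 oxygen-sensing genes do.

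In the symbols with many genes, most copies were at or near 0. ERF1B, named for the Arabidopsis factor that integrates ethylene and jasmonate responses, had 31 genes, of which 22 were at 0 throughout and 2 were tested. ERF098 had 24 genes, 22 of them at 0 throughout and none tested. RAP2-11, named for an Arabidopsis factor of the low-potassium response, had 20 genes, 12 of them at 0 throughout and none tested. The cold-response DREB1 genes were 16, with 10 at 0 throughout and none tested; the highest, Gh_A12G2357 (DREB1D), had 0, 0.0684, 0, 0.0573 and 0.113 FPKM in RNAi replicates 2 to 6, against 0.251, 0 and 0 FPKM in WT replicates 1 to 3. The dehydration-response DREB2 genes were also 16, and 9 were at 0 throughout. One of them was tested, Gh_A09G2423 (DREB2A), a namesake of the Arabidopsis drought and heat activator. It had 0.379, 0.894, 1.01, 1.23 and 0.999 FPKM in the RNAi libraries, against 1.38, 0.540 and 1.19 FPKM in the WT libraries, and the groups overlapped.

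A few genes carried most of the family's transcript. Summed over the family, FPKM came to 1530 ± 59.4 in RNAi and 1600 ± 79.7 in WT (SD, n = 5 and 3). The 2 highest genes, both RAP2-12, held 40.1% of the summed FPKM, and the 10 highest held 68.3%. In 29 genes the mean reached 10 FPKM. The oxygen-sensing class held 49.1% of the sum, the DREB-type class 17.9%, the defence-type class 14.9% and the repressor-type class 14.6%.

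**Figure D2:**
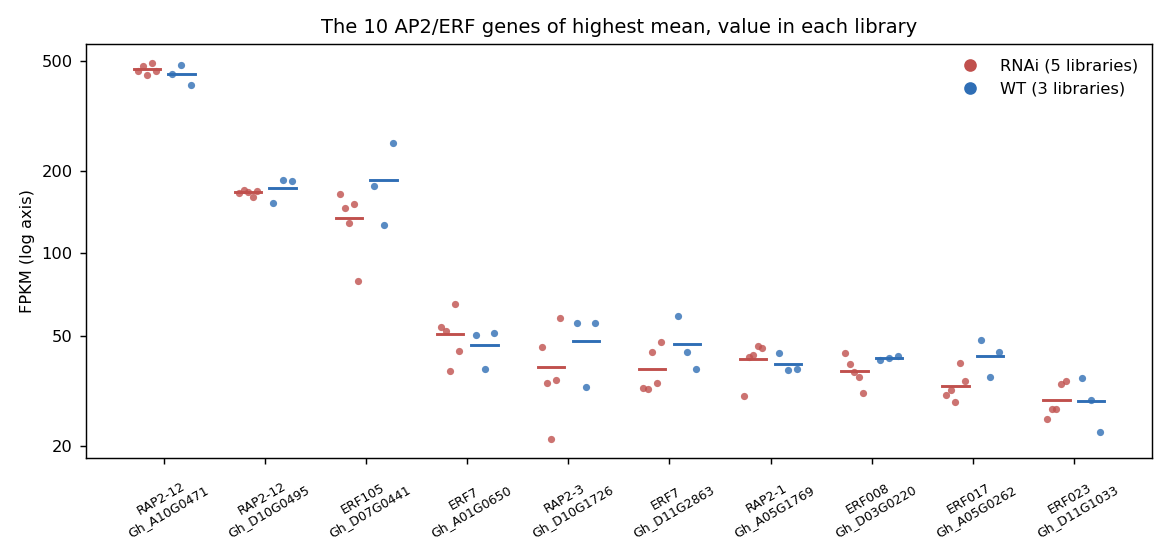
FPKM (y axis, log scale) of the 10 AP2/ERF genes of highest mean (x axis, from the highest) in each of 5 RNAi and 3 WT libraries, with group means as lines. Gh_A10G0471 (RAP2-12) stands between 409 and 494 FPKM in all 8 libraries, and the RNAi and WT libraries overlap in all 10 genes.

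Between RNAi and WT no AP2/ERF gene passed the threshold. With limma on log2(FPKM + 1), 0 of the 73 tested genes had an adjusted p under 0.05, where 57 of all 34051 tested genes (0.167%) did, and the smallest adjusted p in the family was 0.572. At an unadjusted p under 0.05 there were 13 of 73 genes (17.8%), where the share over all tested genes was 5.86%. Of these 13, 4 were higher in RNAi (over all genes 2.44%) and 9 were lower (over all genes 3.42%). The libraries of the groups did not overlap in 5 of the 73 (over all genes 4.07%). Among both these 5 and the 13 was Gh_A05G3751 (ERF012), which passed the filter through RNAi libraries alone. Of the 13, Gh_A10G0255 (ERF4) reached 1 FPKM in WT replicate 1 alone of the WT libraries. Gh_D05G1154 (ERF084) and Gh_A07G0379 (ERF2) reached it in every WT library, but in RNAi only in replicates 3 and 5 and in replicates 2 and 5. These too were let in mainly by the group where they were higher, and the part of the filter in the 17.8% was not tested. The log2 fold change, RNAi minus WT, was positive in 32 of the 73 (43.8%, over all genes 46.4%), with a median of -0.08, against -0.02 over all tested genes. The median size of the log2 fold change was 0.23, against 0.14 over all tested genes. The spread between libraries of a group was also wider than usual: the median within-group SD on the log2 scale was 0.36, against 0.24 over all tested genes, and 58 of the 73 lay above that overall median. The count of 13 fell when any single library was left out. It was 8, 10 and 6 without WT replicates 1, 2 and 3, and 7, 6, 7, 10 and 10 without RNAi replicates 2 to 6. The share over all genes in these smaller fits is not given here, so a general loss of power cannot be told apart from a trait of the family. In these bulk samples, fewer cells of a type and less RNA per cell cannot be told apart.

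**Figure D3:**
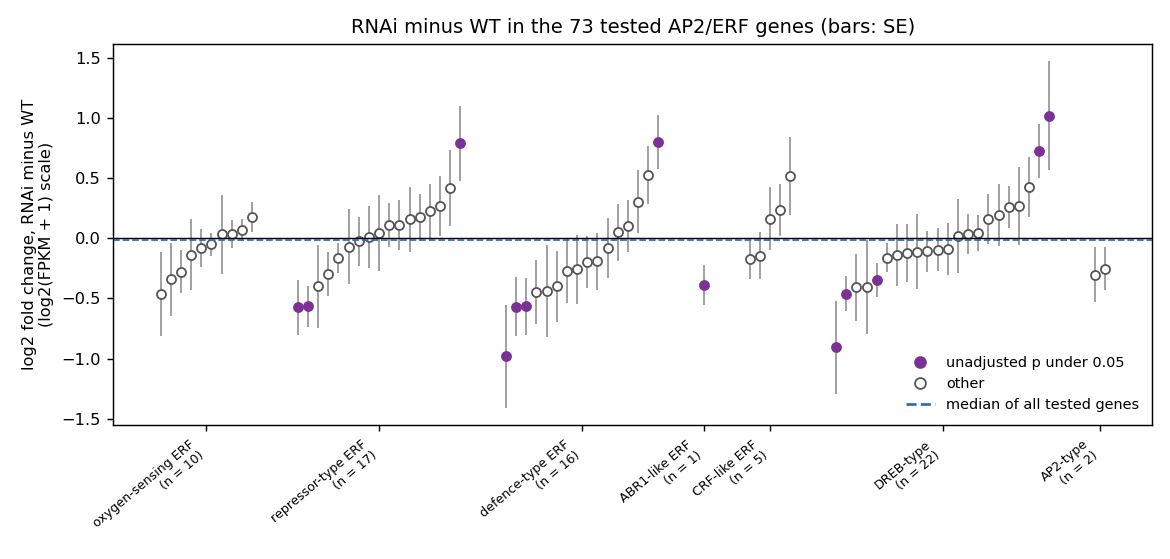
Log2 fold change, RNAi minus WT on the log2(FPKM + 1) scale (y axis), of each of the 73 tested AP2/ERF genes, grouped by class and sorted within it (x axis), with bars of 1 SE. Filled points are the 13 genes with an unadjusted p under 0.05, none of which passes after adjustment, and the dashed line is the median of all tested genes at -0.02.

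The oxygen-sensing ERFs were the most abundant class and their sum was close in the groups, at 768.6 ± 22.0 FPKM in RNAi and 766.9 ± 27.6 FPKM in WT (SD, n = 5 and 3). RAP2-12, in Arabidopsis an activator of low-oxygen genes held at the plasma membrane until oxygen falls, had 6 genes, all of them tested. Gh_A10G0471 (RAP2-12) alone held 29.3% of the family's FPKM, with 461, 481, 445, 494 and 459.7 FPKM in RNAi replicates 2 to 6, against 449, 486 and 409 FPKM in WT replicates 1 to 3. It was the highest AP2/ERF gene in every library. Its D namesake Gh_D10G0495 (RAP2-12) had 166, 170.3, 168, 161 and 169 FPKM in the RNAi libraries, against 153, 184 and 183 FPKM in the WT libraries. Both RAP2-12 genes varied little: their within-group SDs on the log2 scale lay at the 2.01th and 2.64th percentile of all tested genes. The log2 fold changes were 0.07 ± 0.09 (SE, limma adjusted p = 0.923) for the A copy and -0.05 ± 0.09 (SE, limma adjusted p = 0.946) for the D copy. The other 4 RAP2-12 genes, given to complete the symbol after their values were seen, were lower. Gh_A06G1954 averaged 30.4 ± 4.12 FPKM in RNAi and 26.6 ± 1.69 FPKM in WT, and Gh_D06G2091 averaged 26.1 ± 2.22 FPKM in RNAi and 25.5 ± 2.97 FPKM in WT. Gh_D05G1351 averaged 16.7 ± 2.77 FPKM in RNAi and 17.7 ± 2.30 FPKM in WT, and Gh_A05G1175 averaged 3.20 ± 0.496 FPKM in RNAi and 4.15 ± 1.19 FPKM in WT.

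RAP2-3, another group VII factor that in Arabidopsis responds to ethylene and low oxygen, had 7 genes, 4 of them tested. Gh_D10G1726 (RAP2-3) had 45.8, 33.7, 21.2, 34.7 and 58.1 FPKM in the RNAi libraries, against 55.9, 32.8 and 55.8 FPKM in the WT libraries, and its A namesake Gh_A10G1483 (RAP2-3) had 22.4, 10.1, 7.21, 13.3 and 14.4 FPKM in the RNAi libraries, against 22.3, 10.5 and 23.6 FPKM in the WT libraries. Unlike the main RAP2-12 pair, both RAP2-3 copies varied more than 2-fold among the RNAi libraries, with the lowest value in RNAi replicate 4 in each, and the groups overlapped. Their log2 fold changes were -0.34 ± 0.30 (SE, limma adjusted p = 0.893) in the D copy and -0.46 ± 0.35 (SE, limma adjusted p = 0.882) in the A copy. The single ERF071 gene, named for a low-oxygen-induced factor of Arabidopsis, did not reach the filter.

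The repressor-type class was led by ERF7, which in Arabidopsis represses abscisic acid responses. All 4 ERF7 genes were tested. Gh_A01G0650 (ERF7) had 54.0, 52.3, 37.5, 65.7 and 44.3 FPKM in the RNAi libraries, against 50.5, 37.9 and 51.5 FPKM in the WT libraries. Gh_D11G2863 (ERF7) had 32.5, 32.0, 43.9, 33.7 and 47.6 FPKM in the RNAi libraries, against 59.4, 43.7 and 37.9 FPKM in the WT libraries. In both, RNAi and WT libraries overlapped. The A namesake of the second, Gh_A11G2519 (ERF7), had 14.9, 16.8, 11.5, 17.7 and 19.2 FPKM in the RNAi libraries, against 25.7, 20.5 and 25.7 FPKM in the WT libraries, and there every RNAi library was below every WT library. Its mean was 16.01 ± 2.99 FPKM in RNAi and 24.0 ± 2.98 FPKM in WT (SD, n = 5 and 3), and its log2 fold change of -0.57 ± 0.17 (SE) did not pass after adjustment (limma adjusted p = 0.635). Of 12 ERF4 genes, named for an EAR repressor of ethylene and jasmonate responses, 7 were tested. Gh_A10G0255 (ERF4) had 2.54, 1.16, 2.91, 1.12 and 0.670 FPKM in the RNAi libraries, against 1.07, 0.181 and 0.308 FPKM in the WT libraries, a log2 fold change of 0.79 ± 0.31 (SE, limma adjusted p = 0.840). Its 4 highest values were in RNAi libraries and its 2 lowest in WT, but RNAi replicate 6 lay below WT replicate 1. Its D namesake Gh_D10G0255 (ERF4) had 1.95, 2.38, 2.91, 1.36 and 1.05 FPKM in the RNAi libraries, against 2.88, 1.63 and 1.23 FPKM in the WT libraries, with every WT library inside the RNAi range. Gh_D05G1154 (ERF084) was low, at 0.679, 1.24, 0.518, 1.26 and 0.256 FPKM in the RNAi libraries, against 1.14, 1.88 and 1.85 FPKM in the WT libraries, with a log2 fold change of -0.58 ± 0.23 (SE, limma adjusted p = 0.840). WT replicate 1 lay inside the RNAi range and the other WT libraries above it. Over the class, 10 of 17 tested genes had a positive and 7 a negative fold change, with a median of 0.05.

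In the defence-type class a single gene stood above the rest. Gh_D07G0441 (ERF105), named for a stress- and cold-responsive Arabidopsis factor, had 165, 146, 129, 151 and 79.3 FPKM in RNAi replicates 2 to 6, against 176, 127 and 252 FPKM in WT replicates 1 to 3. It was lowest in RNAi replicate 6 and highest in WT replicate 3, the groups overlapped, and the log2 fold change came to -0.45 ± 0.27 (SE, limma adjusted p = 0.874). Its A namesake Gh_A07G0378 (ERF105) had 36.3, 20.003, 25.7, 18.3 and 17.6 FPKM in the RNAi libraries, against 20.9, 21.7 and 20.8 FPKM in the WT libraries. ERF5, named for an activator of chitin and defence responses, gave the smallest p of the family, in Gh_A03G0066. It had 8 genes, 4 of them tested. Outside the pair given next, the log2 fold changes were 0.30 ± 0.26 in Gh_A12G1954 and -0.20 ± 0.22 in Gh_A12G1955 (SE). The tested ERF5 genes thus had no common sign. Gh_A03G0066 (ERF5) had 5.58, 3.56, 3.61, 6.29 and 3.56 FPKM in the RNAi libraries, against 2.23, 1.40 and 2.87 FPKM in the WT libraries, so that every RNAi library was above every WT library. The means were 4.52 ± 1.32 FPKM in RNAi and 2.17 ± 0.734 FPKM in WT (SD, n = 5 and 3), a log2 fold change of 0.80 ± 0.23 (SE, limma adjusted p = 0.572). Its D namesake Gh_D03G1591 (ERF5) had 4.40, 5.09, 2.48, 5.80 and 4.67 FPKM in the RNAi libraries, against 2.56, 1.97 and 3.88 FPKM in the WT libraries. The D copy also had its 4 highest values in RNAi, but RNAi replicate 4 lay among the WT libraries; its log2 fold change came to 0.53 ± 0.24 (SE, limma adjusted p = 0.845).

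Other defence-type genes had lower means in RNAi. Gh_D10G0272 (ERF091) had 5.04, 2.14, 1.79, 2.29 and 3.34 FPKM in the RNAi libraries, against 4.48, 4.52 and 4.74 FPKM in the WT libraries; the WT libraries were close together, 4 of 5 RNAi libraries lay below them and RNAi replicate 2 lay above. Its A namesake Gh_A10G0271 (ERF091) was below the filter, at 1.65, 0.178, 0.298, 0.399 and 0.0981 FPKM in the RNAi libraries, against 0.328, 0.557 and 0.711 FPKM in the WT libraries. ERF2, named for an Arabidopsis activator of jasmonate-responsive defence, had 12 genes, of which 2 were tested, both A copies and both among the 5 most variable AP2/ERF genes. Gh_A07G0379 (ERF2) had 2.87, 0.262, 0, 1.37 and 0.432 FPKM in the RNAi libraries, against 2.65, 1.36 and 3.83 FPKM in the WT libraries. Gh_A11G0366 (ERF2) had 2.18, 1.66, 0, 0.940 and 0.793 FPKM in the RNAi libraries, against 0.687, 2.002 and 2.77 FPKM in the WT libraries. Both were listed at 0 in RNAi replicate 4, the shallowest library, and the groups overlapped in both. Their log2 fold changes were -0.98 ± 0.43 (SE, limma adjusted p = 0.842) and -0.44 ± 0.38 (SE, limma adjusted p = 0.892). Gh_D07G0440 (ERF106) had 8.66, 5.93, 7.88, 8.08 and 11.3 FPKM in the RNAi libraries, against 10.6, 6.62 and 19.4 FPKM in the WT libraries, again with the highest value in WT replicate 3. Over the class, 5 of 16 tested genes had a positive and 11 a negative fold change, with a median of -0.23.

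DREB-type expression came from a handful of genes, none of them DREB1 or DREB2. Gh_A05G1769 (RAP2-1), named for an Arabidopsis factor that limits cold and dehydration responses, had 30.2, 41.9, 42.6, 46.1 and 45.2 FPKM in the RNAi libraries, against 43.4, 37.6 and 38.0 FPKM in the WT libraries. Gh_D03G0220 (ERF008) had 43.4, 39.5, 37.2, 35.4 and 31.0 FPKM in the RNAi libraries, against 41.0, 41.6 and 42.2 FPKM in the WT libraries, and Gh_D11G1033 (ERF023) had 24.9, 27.2, 27.2, 33.5 and 34.2 FPKM in the RNAi libraries, against 35.3, 29.2 and 22.4 FPKM in the WT libraries. In each of these the groups overlapped, and limma adjusted p values were 0.969, 0.882 and 0.978. Gh_A05G0262 (ERF017) had 30.5, 31.8, 28.9, 39.9 and 34.3 FPKM in the RNAi libraries, against 48.4, 35.4 and 43.7 FPKM in the WT libraries, with 4 of 5 RNAi libraries below every WT library and a log2 fold change of -0.35 ± 0.14 (SE, limma adjusted p = 0.840). Gh_A02G1493 (ERF010), a gene of the DREB branch, had 12.1, 12.98, 12.0, 9.14 and 13.1 FPKM in the RNAi libraries, against 18.8, 14.4 and 16.8 FPKM in the WT libraries. Every RNAi library was below every WT library, the means were 11.9 ± 1.599 FPKM in RNAi and 16.7 ± 2.23 FPKM in WT (SD, n = 5 and 3), and the log2 fold change came to -0.46 ± 0.15 (SE, limma adjusted p = 0.707).

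RAP2-4, in Arabidopsis an ethylene- and light-responsive factor of drought tolerance, had 8 genes, 5 of them tested. Gh_A06G0307 (RAP2-4) had 6.90, 3.31, 4.66, 3.21 and 3.60 FPKM in the RNAi libraries, against 2.30, 2.52 and 1.66 FPKM in the WT libraries. Every RNAi library was above every WT library, with a log2 fold change of 0.72 ± 0.22 (SE, limma adjusted p = 0.685), and RNAi replicate 2 stood highest. Its D namesake Gh_D06G0336 (RAP2-4) had 6.44, 5.84, 5.08, 5.46 and 4.54 FPKM in the RNAi libraries, against 5.28, 5.10 and 1.88 FPKM in the WT libraries, where WT replicate 3 alone stood low. The other 3 tested RAP2-4 genes had fold changes of 0.16 ± 0.21, -0.10 ± 0.18 and -0.41 ± 0.28 (SE) in Gh_A05G1961, Gh_D05G2188 and Gh_A12G2573. The 5 RAP2-4 genes thus had no common sign.

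Among the most variable genes of the family were 3 of the DREB type. Gh_A05G3751 (ERF012) had 6.69, 1.29, 0.884, 2.71 and 0.775 FPKM in the RNAi libraries, against 0.755, 0.611 and 0.0780 FPKM in the WT libraries. The groups did not overlap, but RNAi replicates 4 and 6 were close to WT replicate 1. The log2 fold change of 1.02 ± 0.45 (SE) had a limma adjusted p of 0.844. No WT library reached 1 FPKM, so Gh_A05G3751 entered the test through its RNAi libraries alone. The filter thus favoured a higher RNAi value here. Gh_D12G1133 (ERF023) had 3.59, 6.07, 3.85, 10.2 and 10.6 FPKM in the RNAi libraries, against 11.8, 7.84 and 21.5 FPKM in the WT libraries; WT replicate 3 was highest, RNAi replicates 5 and 6 lay within the WT range, and the log2 fold change came to -0.91 ± 0.39 (SE, limma adjusted p = 0.840). Gh_D05G0354 (ERF017) had 2.03, 3.38, 2.99, 4.91 and 8.53 FPKM in the RNAi libraries, against 6.20, 2.90 and 9.11 FPKM in the WT libraries, with overlapping groups. Over the DREB type, 10 of 22 tested genes had a positive and 12 a negative fold change, with a median of -0.09.

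The remaining classes were small or low. In the ABR1-like class, named for an Arabidopsis repressor of abscisic acid responses, 1 of 24 genes was tested: Gh_D10G1019 (ERF114) had 7.94, 8.33, 7.24, 9.49 and 10.6 FPKM in the RNAi libraries, against 9.58, 11.3 and 14.7 FPKM in the WT libraries. Of its RNAi libraries 4 lay below every WT library and RNAi replicate 6 lay inside the WT range, with a log2 fold change of -0.39 ± 0.17 (SE, limma adjusted p = 0.840). The CRF-like genes, related to the cytokinin response factors, had 5 of 7 genes tested, and their sum was 40.6 ± 8.91 FPKM in RNAi and 36.0 ± 2.89 FPKM in WT (SD, n = 5 and 3). RAP2-7, in Arabidopsis a repressor of flowering with AP2 domains, had 8 genes, none at 0 throughout and 2 tested, both with a negative fold change. The 30 genes of the ERF003 and RAP2-11 class came to at most 1.28 FPKM in any library, all 30 summed.

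**Figure D4:**
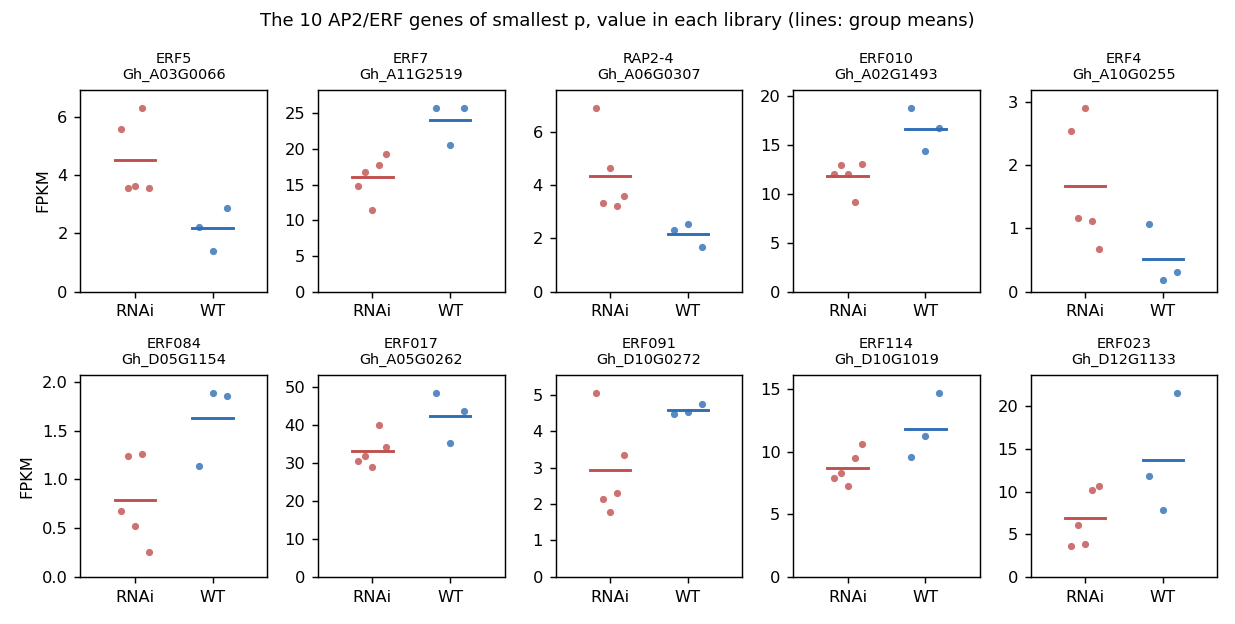
FPKM (y axes, each from 0 and each with its own scale) of the 10 AP2/ERF genes of smallest p in each RNAi and WT library (x axis), with group means as lines. In 7 of the 10 the RNAi mean is lower and in 3 it is higher, and the libraries of the groups are separate in 4: Gh_A03G0066 (ERF5), Gh_A11G2519 (ERF7), Gh_A06G0307 (RAP2-4) and Gh_A02G1493 (ERF010).

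The subgenome copies were compared within libraries. Cotton is a tetraploid, with an A and a D copy of most genes. A namesake pair was taken as 1 gene on an A chromosome and 1 on the D chromosome of the same number that share a symbol held by no other gene of these chromosomes. This does not prove that they descend from the same ancestral gene, and reads that fit both copies may have been split between them in a way not stated. The table held 94 such AP2/ERF pairs among 13223, and 29 had at least 1 copy tested (9046 over all genes). Both copies were tested in 18 of the 29. A pair let in by 1 copy alone is set up to show unequal copies. How many of the 9046 pairs were let in this way is not given here. The comparisons with all pairs therefore do not separate a trait of the family from the filter. In 26 of the 29 (89.7%) the copies differed at a limma adjusted p under 0.05, where the share over all pairs was 79.9%. The A copy was higher in 10 (over all pairs 38.8%), the D copy in 16 (over all pairs 41.0%), and 3 did not pass. In 14 of 29 (48.3%) the difference passed and was at least 1 on the log2 scale (over all pairs 30.6%). The median size of the difference was 1.0, against 0.59 over all pairs, and the same copy was higher in all 8 libraries in 18 of the 29 (62.1%), where the share over all pairs was 66.0%.

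**Figure D5:**
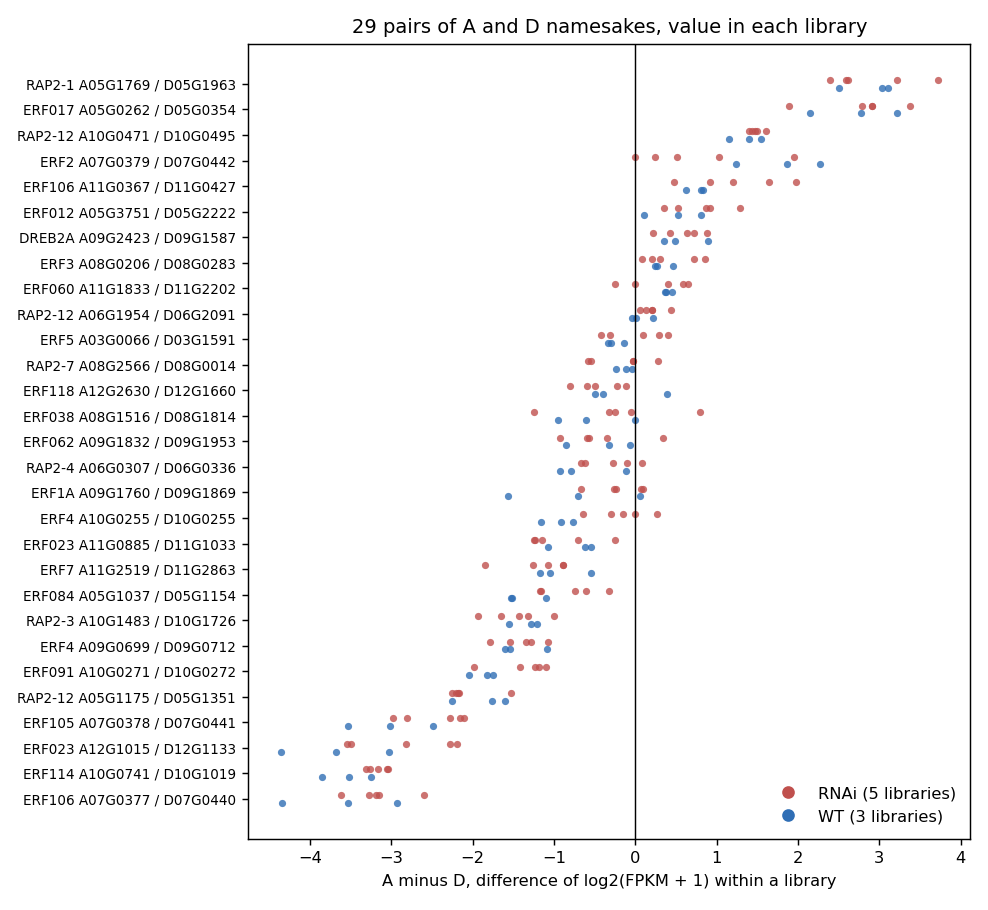
A minus D difference of log2(FPKM + 1) within a library (x axis) for the 29 tested namesake pairs (y axis, sorted by mean difference), with 5 RNAi and 3 WT libraries as points. Points right of 0 mean a higher A copy. The RAP2-1 pair on chromosome 5 lies right of 2 in every library, and the ERF106 pair on chromosome 7 lies left of -2.

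The largest differences ran in both directions. The RAP2-1 pair favoured the A copy: Gh_A05G1769 stood at the values above, while Gh_D05G1963 (RAP2-1) had 4.18, 3.60, 2.31, 7.97 and 6.55 FPKM in the RNAi libraries, against 4.41, 3.46 and 5.89 FPKM in the WT libraries. The A minus D difference was 2.90 ± 0.14 (SE, limma adjusted p = 8.3e-09), an FPKM ratio of 8.51. The ERF017 pair, Gh_A05G0262 and Gh_D05G0354, likewise favoured the A copy, by 2.74 ± 0.16 on the log2 scale (SE, limma adjusted p = 2.89e-08), a ratio of 7.24. The ERF105 pair, Gh_A07G0378 and Gh_D07G0441, favoured the D copy, with a difference of -2.74 ± 0.13 (SE, limma adjusted p = 5.15e-09) and a D level 7.14 times that of A. In 3 further pairs the A copy was at or near 0. Gh_A07G0377 (ERF106) had 0.145 FPKM in RNAi replicate 3 and was listed at 0 in the other 7 libraries, while its D copy Gh_D07G0440 averaged 8.37 ± 1.94 FPKM in RNAi and 12.2 ± 6.51 FPKM in WT. Gh_A10G0741 (ERF114) had 0, 0.125, 0, 0.0525 and 0.207 FPKM in the RNAi libraries, against 0.115, 0.0652 and 0.0832 FPKM in the WT libraries, while Gh_D10G1019 averaged 8.73 ± 1.34 FPKM in RNAi and 11.8 ± 2.60 FPKM in WT. Gh_A12G1015 (ERF023) was listed at 0 in all RNAi libraries and had 0, 0.0800 and 0.102 FPKM in the WT libraries, while Gh_D12G1133 averaged 6.88 ± 3.39 FPKM in RNAi and 13.7 ± 7.04 FPKM in WT.

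The pairs of a symbol need not share a direction. The 3 RAP2-12 pairs differed by 1.42 ± 0.05 on chromosome 10, -1.97 ± 0.10 on chromosome 5 and 0.13 ± 0.06 on chromosome 6 (A minus D, SE). The limma adjusted p values were 2.64e-10, 1.26e-08 and 0.0487. So the A copy was higher on chromosome 10, the D copy on chromosome 5, and the A copy by a small margin on chromosome 6. The RAP2-3 pair on chromosome 10 favoured the D copy, at -1.41 ± 0.09 (SE, limma adjusted p = 1.05e-07), as did the ERF7 pair on chromosome 11, at -1.06 ± 0.11 (SE, limma adjusted p = 5.04e-06). The ERF5 pair did not differ past the threshold, at -0.12 ± 0.11 (SE, limma adjusted p = 0.294). Gh_A11G0885 (ERF023), the A namesake of Gh_D11G1033, had 10.045, 11.7, 22.7, 13.5 and 20.7 FPKM in the RNAi libraries, against 16.2, 19.7 and 14.3 FPKM in the WT libraries, and was lower than its D copy in all 8 libraries. Gh_A05G1037 (ERF084), the A namesake of Gh_D05G1154, was listed at 0 throughout.

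The balance of the copies did not change past the threshold between RNAi and WT in any pair. With limma, 0 of 29 pairs had an adjusted p under 0.05 for the change (over all pairs 0.332%), and 4 of 29 (13.8%) had an unadjusted p under 0.05 (over all pairs 6.84%). The smallest p belonged to the ERF4 pair on chromosome 10: its A minus D difference was -0.17 in RNAi and -0.94 in WT, a change of 0.78 ± 0.22 (SE, limma adjusted p = 0.367).

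Many of the genes at 0 lie next to each other. Family members with consecutive identifier numbers formed 42 runs that held 110 genes, the longest with 8. In runs 61.8% of members were listed at 0 in all libraries and 11.8% were tested, while outside runs the shares were 39.9% and 22.8%. The run of 8 on A07, from Gh_A07G1929 to Gh_A07G1936, holds ERF098, ERF15 and ERF1B genes; the first 6 were at 0 throughout and the last, Gh_A07G1936 (ERF1B), averaged 1.13 ± 0.545 FPKM in RNAi and 1.39 ± 0.446 FPKM in WT. A run of ERF106, ERF105 and ERF2 is present on both A07 and D07. In it the D copy was higher for ERF106 and ERF105, and the A copy for ERF2, at 1.27 ± 0.21 (A minus D, SE, limma adjusted p = 0.000164).

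The pathway around the family was read from symbol lists, and no listed gene passed the threshold in either direction. Over all tested genes the median log2 fold change was -0.02, and 46.4% of the fold changes were positive. At an unadjusted p under 0.05 in limma, 2.44% of all tested genes were higher and 3.42% lower in RNAi. Of ethylene synthesis genes 33 of 79 were tested, with 0 past the threshold in limma, 3 higher in RNAi at an unadjusted p under 0.05 and a median log2 fold change of 0.00. The smallest p belonged to Gh_A02G0578 (SAMS, S-adenosylmethionine synthase), which had 13.9, 6.79, 8.14, 5.99 and 5.42 FPKM in the RNAi libraries, against 2.38, 4.39 and 2.73 FPKM in the WT libraries. Every RNAi library was above every WT library there, with a log2 fold change of 1.08 ± 0.28 (SE, limma adjusted p = 0.444). On D02, Gh_D02G0636 (SAMS) had 19.4, 11.4, 10.1, 5.41 and 6.72 FPKM in the RNAi libraries, against 4.04, 7.73 and 3.21 FPKM in the WT libraries, with overlapping groups (limma adjusted p = 0.840). The highest gene of the list, Gh_A12G1098 (SAMS1), averaged 443 ± 49.7 FPKM in RNAi and 464 ± 71.7 FPKM in WT. As background, S-adenosylmethionine also feeds methylation reactions outside ethylene synthesis.

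Of ethylene perception and signalling genes 66 of 94 were tested, 0 passed, 6 were higher and 0 lower in RNAi at an unadjusted p under 0.05, and 51 had a positive and 15 a negative fold change, with a median of 0.14. Gh_D07G0192 (RTE1, which acts on the ETR1 receptor) had 2.66, 1.41, 1.77, 0.443 and 3.10 FPKM in the RNAi libraries, against 0.108, 0.611 and 0.312 FPKM in the WT libraries, a log2 fold change of 1.03 ± 0.32 (SE, limma adjusted p = 0.689). Gh_A08G2112 (EBF1, an F-box protein that targets EIN3 for breakdown) had 5.93, 3.01, 3.92, 3.23 and 6.15 FPKM in the RNAi libraries, against 2.87, 2.55 and 1.84 FPKM in the WT libraries (limma adjusted p = 0.797). In EBF1 every RNAi library was above every WT library, while in RTE1 RNAi replicate 5 lay below WT replicate 2. No WT library reached 1 FPKM in this RTE1 gene. It entered the test through RNAi libraries alone, so the filter favoured a higher RNAi value there. The highest gene of the list, Gh_D10G0882 (RTH, a homologue of RTE1), averaged 38.4 ± 6.85 FPKM in RNAi and 45.4 ± 7.35 FPKM in WT. For the oxygen-sensing branch that acts on group VII ERFs, 19 of 29 genes were tested, with 0 past the threshold and 0 at an unadjusted p under 0.05 in limma. The list held the PCO oxidases, ATE transferases and PRT6 ligase, which mark these factors for breakdown. It also held the ACBP membrane anchors, which do not. Gh_D04G0369 (PCO4), a cysteine oxidase, averaged 7.92 ± 1.59 FPKM in RNAi and 6.08 ± 0.757 FPKM in WT, and Gh_D09G1755 (ACBP2) averaged 44.3 ± 6.12 FPKM in RNAi and 50.5 ± 1.35 FPKM in WT.

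Genes often named as targets of ERF and DREB factors (defensin, osmotin, cold-regulated, dehydrin and low-oxygen genes) had 30 of 74 tested, 0 past the threshold and 1 lower in RNAi at an unadjusted p under 0.05. That one was Gh_D07G1400 (LEA14-A, a late embryogenesis abundant protein), at 6.71 ± 2.34 FPKM in RNAi and 10.1 ± 2.44 FPKM in WT (SD, n = 5 and 3). The highest, Gh_D05G1729 (COR47, a dehydrin), had 974, 498, 396, 559.5 and 754 FPKM in the RNAi libraries, against 533, 749 and 641 FPKM in the WT libraries, with overlapping groups. Gh_A09G0755 (COR413IM2) averaged 2.62 ± 0.627 FPKM in RNAi and 3.57 ± 0.297 FPKM in WT. Other AP2/ERF genes under different names (AP2, ANT, TINY, WRI1 and the like) had 22 of 118 tested and 0 past the threshold, with 2 at an unadjusted p under 0.05. Gh_A02G1495 (AP2) averaged 17.1 ± 2.88 FPKM in RNAi and 11.5 ± 2.61 FPKM in WT, and Gh_D10G2551 (WRI1, a regulator of seed oil synthesis) averaged 0.839 ± 0.401 FPKM in RNAi and 1.996 ± 0.933 FPKM in WT. Gh_A10G0760 (TINY, a DREB-type factor) was the highest of these, at 65.3 ± 8.06 FPKM in RNAi and 71.1 ± 10.9 FPKM in WT.

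Heat shock genes and markers of other cell types also varied between libraries. For comparison, 2.44% of all tested genes were higher and 3.42% lower in RNAi at an unadjusted p under 0.05. Heat shock genes had 104 of 159 tested, 0 past the threshold, 2 higher and 12 lower in RNAi at an unadjusted p under 0.05, and 81 of the 104 had a negative fold change, with a median of -0.43. Their summed level lay between 4894 and 11898 FPKM in RNAi and between 8733 and 13957 FPKM in WT, highest in WT replicate 3 and lowest in RNAi replicate 6, as for Gh_D07G0441 (ERF105), and their part in that result was not tested. The heat shock gene of smallest p, Gh_D12G1364 (HSP17.5-M), averaged 335 ± 189 FPKM in RNAi and 743 ± 97.5 FPKM in WT, with a difference of -1.30 ± 0.37 on the log2 scale (SE, limma adjusted p = 0.578). Green tissue markers had 19 of 79 genes tested, 14 at 0 throughout, and 0 past the threshold, and at an unadjusted p under 0.05 there were 4 higher and 1 lower in RNAi. Of the 19, 10 had a positive fold change, with a median of 0.04. The genes of smallest p encode the small subunit of Rubisco. Gh_D07G1759 (RBCS) averaged 3.09 ± 0.846 FPKM in RNAi and 0.850 ± 0.376 FPKM in WT, with a difference of 1.14 ± 0.20 on the log2 scale (SE, limma adjusted p = 0.102). Gh_A07G2172 (RBCS) averaged 3.61 ± 1.58 FPKM in RNAi and 0.626 ± 0.226 FPKM in WT, with a difference of 1.44 ± 0.27 (SE, limma adjusted p = 0.129). In both RBCS genes every RNAi library was above every WT library. No WT library reached 1 FPKM in Gh_A07G2172, so it entered the test through its RNAi libraries alone. In Gh_D07G1759 only WT replicate 1 did, at 1.28 FPKM. The filter thus favoured a higher RNAi value in both. The green tissue list summed to between 123 and 169 FPKM in RNAi and between 135 and 151 FPKM in WT. Ovule and seed storage markers had 2 of 23 tested, 0 past the threshold, 11 at 0 throughout, and sums of 17.1 to 20.1 FPKM in RNAi and 16.8 to 19.1 FPKM in WT. Both tested genes carried the symbol VCL1, whose meaning here was not checked. Vascular and secondary wall markers had 10 of 75 tested, 0 past the threshold, with sums of 112 to 372 FPKM in RNAi and 127 to 167 FPKM in WT. SEOA and SEOC were listed at 0, but other members were expressed. Gh_D09G1426 (IRX9), the highest of the list, averaged 77.8 FPKM in RNAi and 67.7 FPKM in WT. Gh_D02G1793 (IRX10) averaged 23.7 FPKM in RNAi and 18.8 FPKM in WT.

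Fibre markers had 23 of 33 tested, none at 0 throughout and 0 past the threshold. At an unadjusted p under 0.05 there were 5 higher and 0 lower in RNAi (over all tested genes 2.44% and 3.42%). Of the 23, 18 had a positive fold change, with a median of 0.33. Gh_A05G0808 (EXPA4), an expansin, averaged 4.10 ± 1.07 FPKM in RNAi and 1.43 ± 0.325 FPKM in WT, with a difference of 1.05 ± 0.19 on the log2 scale (SE, limma adjusted p = 0.102). Gh_A10G0257 (E6) averaged 5.38 ± 1.34 FPKM in RNAi and 2.22 ± 0.393 FPKM in WT, with a difference of 0.96 ± 0.20 (SE, limma adjusted p = 0.215). In both genes every RNAi library was above every WT library, while Gh_D05G1514 (E6), the highest of the list, averaged 18957 ± 2099.8 FPKM in RNAi and 20113 ± 836 FPKM in WT. The list had sums of 38806 to 47912 FPKM in RNAi and 44942 to 47196 FPKM in WT. The part of the green tissue and fibre markers in the AP2/ERF results was not tested.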

How the data were processed

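Total RNA from cotton fibres at 9 days post anthesis was sequenced in 9 samples, of which 5 RNAi and 3 WT libraries were analysed. The authors deposited FPKM values per gene, 1 column per library, without read counts. The submitters' processing notes list FastQC, HISAT2 and DESeq 1.10.1 and give no role for them. Not given in the sources used here are the build, the annotation, the counter and the handling of reads that match several copies. Symbols were taken from the brackets after each identifier. No identifier matched the RefSeq gene table (0 matches), so coordinates and sequences are not given.

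The 34051 genes that reached 1 FPKM in 3 or more libraries entered a limma 3.58.1 fit (R 4.3.3, moderated with a trend, two-sided) of log2(FPKM + 1), with Benjamini-Hochberg adjustment over all of them and a threshold of 0.05. This scale understates changes of low genes. Of the 73 AP2/ERF genes tested, 1, Gh_A05G3751 (ERF012), had no WT library at 1 FPKM, and 0 had no RNAi library there. Namesake pairs were fitted on the A minus D difference per library, over all 9046 tested pairs, with equal weight for the groups. The fits were tested on simulated data. Relative depth came from ratios of low values (under 0.5 FPKM, ratios of up to 4 reads, tolerance 0.01 on the log2 scale). How many reads a library had is unknown, and counting intervals were not computed.

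The AP2/ERF genes and the lists were chosen with earlier results of these data known. Classes and the final symbols of the lists were written after the symbols were seen. Symbols such as ACO and ACS can stand for other enzymes; defensin and cold-regulated names were limited to clear forms, and DREB3 was added to the list of other family members. The design was written for all samples and fitted to the 8 analysed. Named were the 10 genes of smallest p, the 10 of highest mean, the highest gene of each symbol form, namesakes of the first 2 sets, the 6 pairs of largest A minus D difference and the 5 genes of largest within-group SD. From each pathway list came the 2 genes of smallest p and the 1 of highest mean. Alternatives were other pseudocounts, filters, scalings and weights, no trend, a replicate block and each library left out.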

Additional observations from a re-analysis of the deposited data

Results flagged for a closer look

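In each of the 35 named AP2/ERF genes with a value above 0 in 2 or more RNAi libraries, the RNAi libraries were searched for 1 that stood apart from the other 4, by a gap over range above Dixon's critical value of 0.71. Chance gives this in about 1 in 20 groups, and 3 of the 35 genes met it. Gh_A02G1493 (ERF010) had 9.14 FPKM in RNAi replicate 5, against 12.0 to 13.1 FPKM in the other RNAi libraries. Gh_A05G1769 (RAP2-1) had 30.2 FPKM in RNAi replicate 2, against 41.9 to 46.1 FPKM in the others. Gh_A10G0271 (ERF091) had 1.65 FPKM in RNAi replicate 2, against 0.0981 to 0.399 FPKM in the others. Gh_A07G0377 (ERF106) had 0.145 FPKM in RNAi replicate 3 and was listed at 0 in the others, so that its gap equals its range whatever the value, and it is not counted among the 35.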

How the results depend on the processing

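No AP2/ERF gene passed limma's threshold under any of 17 alternatives. The smallest adjusted p was 0.0554, for Gh_D12G1660 (ERF118) with the replicate block. The block takes the difference between the groups from replicates 2 and 3 alone, the only numbers found in both groups. Its p-values and counts are therefore not results of all 8 libraries. The 13 genes at an unadjusted p under 0.05 became 5 (of 41 tested) with a filter at 5 FPKM, 16 (of 200) with no filter, 18 with the replicate block and 6 to 10 when single libraries were left out, and were 11 to 13 under the other alternatives. The share over all tested genes in these fits is not given here. A general shift of the fit therefore cannot be told apart from a trait of the family. Genes called over the whole table (57) were 35 with a pseudocount of 0.01, 36 with a filter at 5 FPKM, 88 with array weights, 313 with the replicate block and 21 to 60 without single libraries (35, 22 and 21 without WT replicates 1, 2 and 3, and 34 without RNAi replicate 5). The median fold change of the family was 0.0132 with no filter (200 genes) and -0.105 to -0.0439 without single libraries. The 26 pairs with unequal copies (of 29 tested) were 17 of 17 tested with a filter at 5 FPKM, 33 of 69 with no filter and 21 to 25 without single libraries. The share of pairs with unequal copies thus moved with the filter.

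The sign of some small fold changes turned. Array weights gave -0.0613 for Gh_D10G0255 (ERF4), -0.0185 for Gh_A07G0378 (ERF105), 0.0466 for Gh_A09G2423 (DREB2A) and -0.00749 for Gh_D11G1033 (ERF023). Leaving out single libraries gave values between -0.163 and 0.235 for Gh_D10G0255, -0.0638 and 0.188 for Gh_A07G0378, -0.279 and 0.0342 for Gh_A09G2423, -0.135 and 0.183 for Gh_D11G1033, -0.0313 and 0.209 for Gh_A01G0650 (ERF7), -0.00143 and 0.147 for Gh_A05G1769 (RAP2-1) and -0.153 and 0.206 for Gh_D05G1963 (RAP2-1). The cause was not tested.

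RNAi and WT share 2 replicate numbers, and the deviations of same-numbered libraries correlated at 0.350 for replicate 2 and -0.0930 for replicate 3, so the numbers do not establish pairs. With the replicate block, the difference between RNAi and WT rests on these shared numbers alone, and little is left from which to estimate the spread. In that fit 2 ethylene synthesis genes passed, Gh_D02G0636 (SAMS) and Gh_D05G1663 (ACO), and 2 target genes, Gh_D01G0906 (ERD10) and Gh_A01G1605 (ADH1). The block gave -0.084 for Gh_A05G1769 and -0.183 for Gh_D05G1963. Depth limits the low genes most: RNAi replicate 4 had 0.367 of the depth of WT replicate 1, and a gene listed at 0 may be expressed below detection.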

Other observations

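Outside the family, Gh_D10G0333 (CESA8, a cellulose synthase of secondary walls) had 15.96, 11.8, 1.02, 74.9 and 0.794 FPKM in RNAi replicates 2 to 6, against 4.90, 1.90 and 0.852 FPKM in WT replicates 1 to 3. RNAi replicate 5 stood far above all other libraries, and the groups overlapped.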
